A study of Mus musculus with 6 samples.

Results

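In order to clarify how the innate sensors of microglia respond to sTREM-1, the mRNA levels of 8 Toll-like receptor genes (Tlr1, Tlr2, Tlr3, Tlr4, Tlr6, Tlr7, Tlr9 and Tlr13) and of the LPS co-receptor genes Cd14 and Ly96 were compared between untreated and sTREM-1 treated BV2 cells. These 10 genes were taken by symbol from a table of 46095 gene symbols, and all 10 were found and passed the filter on low counts. BV2 is an immortalized line of mouse microglia that is kept in culture. The CON group held 3 libraries of untreated BV2 cells, and the sTREM-1 group held 3 libraries of BV2 cells given recombinant sTREM-1 protein, the soluble form of TREM-1, at 1 μg/mL for 6 h. All libraries came from this 1 cell line, and the labels name no vehicle, carrier protein or harvest time for the CON group. The methods of the study state a larger number of cultures per group than the 3 libraries that the labels and the table hold. The labels do not say whether the libraries of a group came from separate passages, so p-values measure only the spread between these libraries, which may be technical.

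Toll-like receptors are membrane proteins that recognise conserved parts of microbes. TLR2 pairs with TLR1 or TLR6 at the cell surface to bind bacterial lipoproteins, and TLR4 binds LPS together with MD-2, the product of Ly96, after CD14 has passed the LPS on. TLR3, TLR7, TLR9 and TLR13 sit in endosomes and recognise double-stranded RNA, single-stranded RNA, DNA with unmethylated CpG and bacterial ribosomal RNA. All of these receptors signal through the adaptors MyD88 or TRIF to NF-kB and to interferon regulatory factors, and microglia are among the brain cells that use them most.

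Each library held between 40070633 and 45877107 counts, and 14120 genes were tested. Libraries of a group differed by more than counting noise, with a chi-square per gene of 3.47 to 5.02 against 20.3 to 22.3 between groups, so each was kept as a replicate. Of 12 microglia and macrophage markers, 11 passed the filter, of which Cx3cr1, P2ry12 and Tmem119 stayed at or below 2.18 CPM (normalised read counts, relative to the TMM-scaled total of the library) in every library and Aif1, which encodes IBA1, was listed at 0. Summed over these markers the level was 2935 to 2967 CPM in the CON group and 3243 to 3299 CPM in the sTREM-1 group. Most of this step was Csf1r, the receptor gene of CSF-1, with a mean of 521 CPM in the CON group and 753 CPM after sTREM-1. Of the 11 tested markers, 5 were called higher (45.5%, against 16.5% of all tested genes), none lower and 6 not called. The markers called higher besides Csf1r were Adgre1 (415 to 454 CPM), Ptprc (346 to 371 CPM), Trem2 (116 to 128 CPM) and Cx3cr1. Cd68 and Tyrobp were among those not called. The summed markers of neurons, astrocytes, fibroblasts and lymphocytes reached at most 1.26 CPM in any library, and those of oligodendrocytes were 7.34 to 7.96 CPM in the CON group against 5.63 to 6.70 CPM in the sTREM-1 group. Whether the change of the marker sums had a part in the results below was not tested.

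Compared with the CON group, 4 of the 10 genes rose and 1 fell after sTREM-1. Tlr2 rose 1.34-fold, Tlr7 1.29-fold, Tlr3 1.28-fold and Tlr13 1.25-fold, while Cd14 fell to 0.921 of its CON level. The other 5 genes, Tlr1, Tlr4, Tlr6, Tlr9 and Ly96, had fold changes between 0.949 and 1.05 and did not pass the test. A gene was called when its Benjamini-Hochberg adjusted p, from the quasi-likelihood test of edgeR over all tested genes, was under 0.05. Of all tested genes 30.5% were called, 16.5% higher and 14.1% lower, and SE is the standard error of a log2 fold change. The 4 of 10 genes that rose are thus read against 16.5%, and the 1 that fell against 14.1%. The median log2 fold change of the 10 genes was 0.04, and that of all tested genes was -0.0017. In bulk RNA, a change in the number of cells that express a gene and a change in the RNA per cell cannot be told apart.

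**Figure D1:**
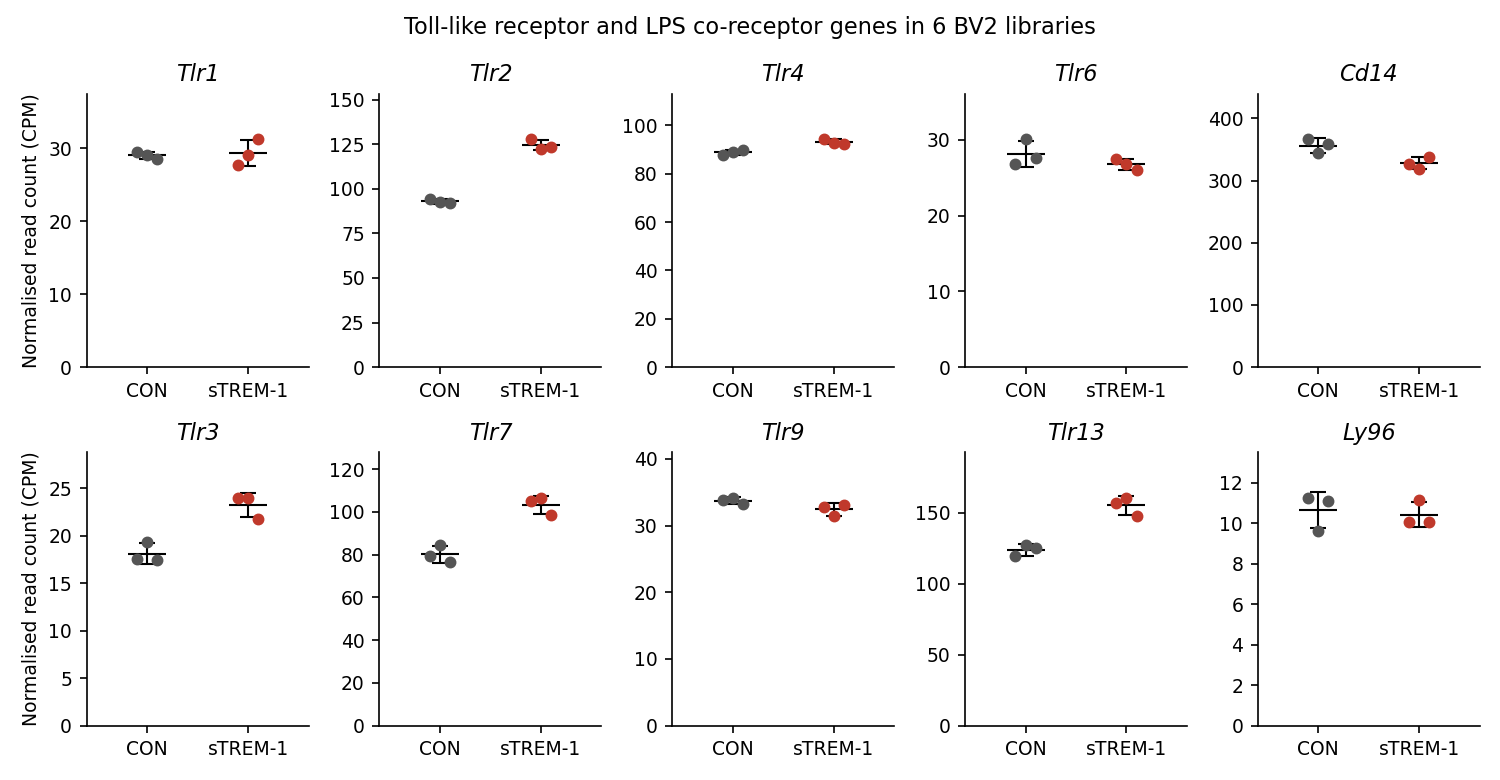
Normalised read counts (CPM, linear axes from 0) of the 10 genes in the 3 CON libraries (grey) and the 3 sTREM-1 libraries (red), with mean ± SD as black bars. The sTREM-1 libraries lie clearly above the CON libraries for Tlr2, Tlr3, Tlr7 and Tlr13 and below them for Cd14, while the groups overlap for Tlr1, Tlr6 and Ly96.

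Among the surface receptors, Tlr2, the shared subunit of the lipoprotein receptors, moved most. Its level was 94.4, 92.3 and 91.9 CPM in CON replicates 1, 2 and 3 and 128, 122 and 124 CPM in sTREM-1 replicates 1, 2 and 3. Every sTREM-1 library lay above every CON library, and the 3 libraries of each group were close to each other. The mean rose from 92.9 ± 1.34 to 125 ± 2.87 CPM (mean ± SD of 3 libraries), and edgeR gave a log2 fold change of 0.42 (SE 0.03, adjusted p = 8.7e-12). With its sign counted, the log2 fold change of Tlr2 was above that of 95.1% of all tested genes, those that fell included, and 300 genes called higher rose at least as much. GENCODE M21 places Tlr2 (ENSMUSG00000027995.10) on the minus strand of chromosome 3 of GRCm38, from 83836272 to 83841767.

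Tlr1 and Tlr6, which encode the partners of TLR2, did not pass the test. Tlr1 had 29.5, 29.0 and 28.6 CPM in the CON group and 27.7, 29.1 and 31.3 CPM after sTREM-1, so that the groups overlapped. Its log2 fold change was 0.02, with a 95% interval from -0.10 to 0.13 (edgeR quasi-likelihood adjusted p = 0.88). Tlr6 had 26.8, 30.1 and 27.7 CPM in the CON group and 27.4, 26.8 and 26.0 CPM after sTREM-1, again with overlap. The log2 fold change was -0.07, with a 95% interval from -0.19 to 0.04 (edgeR quasi-likelihood adjusted p = 0.37). Both intervals lie below the rise of Tlr2.

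The Tlr1 and Tlr6 genes lie next to each other on the minus strand of chromosome 5, from 64924679 to 64933563 and from 64952031 to 64960097, and resemble each other in sequence. Their longest shared stretch in the GENCODE M21 transcripts was 229 bases, and 13.6% of the 50-base words of Tlr1 were also found in Tlr6. Reads from this stretch could have been split between them in the counting, so their single values are less certain than their sum. The other 8 genes shared no 50-base word with any of the 10.

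Tlr4, the LPS receptor, had 87.7, 89.2 and 89.8 CPM in the CON group and 94.4, 92.8 and 92.5 CPM after sTREM-1. All sTREM-1 libraries lay above all CON libraries, but the step between the groups was small. The log2 fold change was 0.07, with a 95% interval from 0.0008 to 0.14, and the gene did not pass the adjusted threshold (edgeR quasi-likelihood, unadjusted p = 0.0475, adjusted p = 0.12). Groups that did not overlap were found for 7 of the 10 genes, 5 of them higher and 2 lower after sTREM-1, and for 40.7% of all tested genes. With a correction for GC content and length together with the replicate block, Tlr4 passed the threshold (log2 fold change 0.08, adjusted p = 0.0467). It spans 66827584 to 66930284 on the plus strand of chromosome 4.

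Of the 4 endosomal receptor genes, 3 rose. Tlr7, a sensor of single-stranded RNA, had 79.3, 84.6 and 76.6 CPM in the CON group and 105, 107 and 98.6 CPM after sTREM-1. The lowest sTREM-1 library thus lay well above the highest CON library. Its mean went from 80.2 ± 4.09 to 103 ± 4.25 CPM (mean ± SD of 3 libraries), and edgeR gave a log2 fold change of 0.37 (SE 0.04, adjusted p = 7.6e-09). Tlr13, which recognises a stretch of bacterial 23S ribosomal RNA, had 119, 128 and 125 CPM in the CON group and 157, 161 and 148 CPM after sTREM-1. The groups were again well apart, and edgeR gave a log2 fold change of 0.32 (SE 0.03, adjusted p = 5.3e-09).

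Tlr3, the sensor of double-stranded RNA that signals through TRIF, moved by a like amount. It had 17.6, 19.4 and 17.4 CPM in the CON group and 24.0, 24.0 and 21.8 CPM after sTREM-1, without overlap. In edgeR the log2 fold change was 0.36 (SE 0.07, adjusted p = 1.4e-04). Tlr9, the sensor of CpG DNA, was the endosomal receptor gene that did not pass the test. Its 33.9, 34.2 and 33.2 CPM in the CON group stood against 32.8, 31.4 and 33.1 CPM after sTREM-1, with the groups parted only narrowly. For Tlr9 the log2 fold change was -0.06 with a 95% interval from -0.16 to 0.04 (edgeR quasi-likelihood adjusted p = 0.43), and this interval lies below the 95% intervals of Tlr3 (0.22 to 0.50), Tlr7 (0.29 to 0.45) and Tlr13 (0.26 to 0.39).

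**Figure D2:**
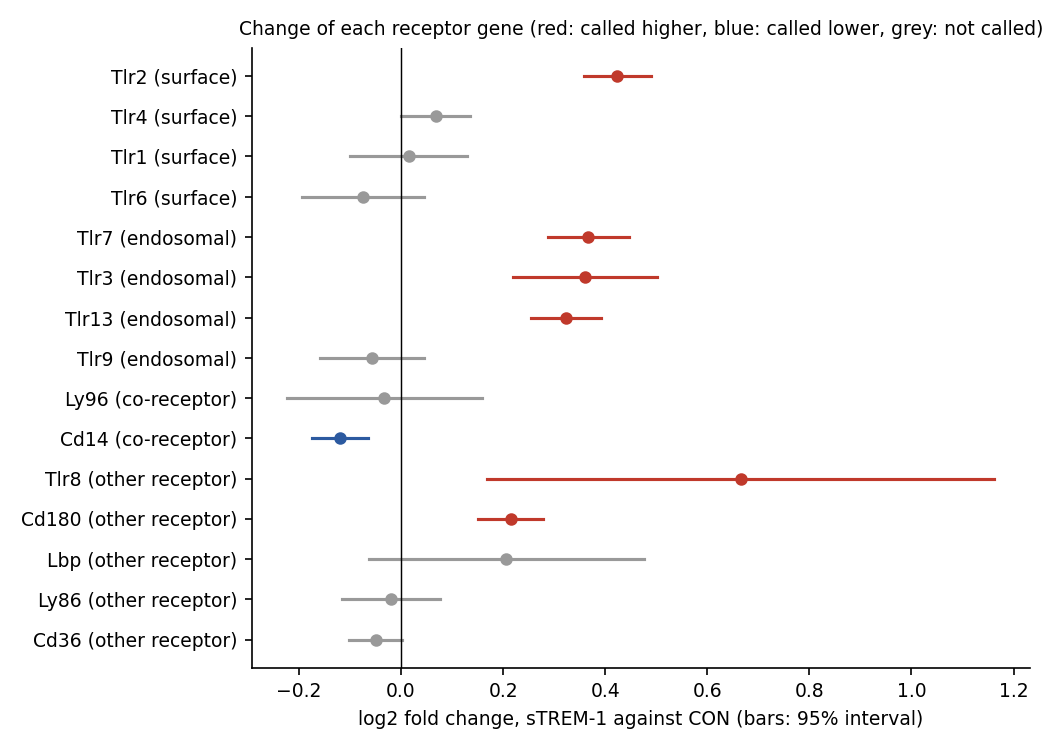
Log2 fold change (x axis, sTREM-1 against CON) of the 10 genes and of 5 other tested receptor genes, with 95% intervals as bars. Red marks genes called higher, blue genes called lower and grey genes not called. Tlr2, Tlr3, Tlr7 and Tlr13 stand between 0.32 and 0.42, Cd14 stands at -0.12, and Tlr8 has the widest interval, from 0.17 to 1.16.

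The genes that rose do not share a place in the genome. Tlr7 (minus strand, 167304929 to 167330558) and Tlr13 (plus strand, 106143204 to 106160493) are both on chromosome X but far apart, while Tlr2 is on chromosome 3 and Tlr3 on chromosome 8 (minus strand, 45395665 to 45411080). Tlr9 lies on the plus strand of chromosome 9 from 106222598 to 106226883. The GC content of the longest transcript was 49.3% for Tlr2, 40.03% for Tlr3, 41.0% for Tlr7 and 43.6% for Tlr13, against 56.2% for Tlr9, 45.1% for Tlr1, 45.6% for Tlr6 and 39.4% for Tlr4. The same 4 genes rose and Cd14 fell when GC and length were corrected for.

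In order to show sequence before the annotated start of the genes, promoter entries of RefSeq (GRCm38.p6) were read for 6 of the 10. Tlr4, Tlr7 and Ly96 had no entry. Cd14, the gene that fell, was left out of the search, so nothing is said here about its promoter. In the 250 bases before each start, 4 motifs were searched on both strands, namely an NF-kB form (GGG and TTTCC with any 2 bases between them), an interferon-response form (2 copies of GAAA with any 2 bases between them), the PU box bound by PU.1 (GAGGAA) and the AP-1 site (TGANTCA). No motif overlapped another kind. Printed here is the part of each window that lies outside the exons of that gene in GENCODE M21, 5′ to 3′ on the strand of the gene, for Tlr2 and Tlr13, which rose, and for Tlr9, which was not called. Capitals mark motif matches. The stretches are chr3:83841768-83841858 (minus strand) for Tlr2, chrX:106143025-106143203 (plus strand) for Tlr13 and chr9:106222348-106222597 (plus strand) for Tlr9. The annotated starts lie at 83841608 for Tlr2, 106143275 for Tlr13 and 106222598 for Tlr9. Only the stretch of Tlr9 thus reaches its start.
Tlr2: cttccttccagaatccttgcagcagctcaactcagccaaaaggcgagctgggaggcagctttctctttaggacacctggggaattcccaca
Tlr13: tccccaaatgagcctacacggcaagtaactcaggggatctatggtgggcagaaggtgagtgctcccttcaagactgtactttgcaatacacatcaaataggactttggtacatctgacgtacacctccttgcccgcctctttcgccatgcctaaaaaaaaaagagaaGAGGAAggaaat
Tlr9: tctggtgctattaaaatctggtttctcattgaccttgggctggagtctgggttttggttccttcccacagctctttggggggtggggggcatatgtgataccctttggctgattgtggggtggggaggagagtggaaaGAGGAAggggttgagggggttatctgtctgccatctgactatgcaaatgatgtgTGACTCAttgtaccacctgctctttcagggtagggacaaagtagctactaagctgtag

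The PU box begins 83 bases before the annotated start of Tlr13 and 112 bases before that of Tlr9, and the AP-1 site begins 58 bases before that of Tlr9. Among 32851 promoter entries of this length, 23.3% held the PU box, 6.75% the AP-1 site, 2.98% the interferon-response form and 1.41% the NF-kB form. In the window of Tlr2 none of the 4 motifs was found in the exact forms given. Other forms of the NF-kB site were not searched, so this does not show that the window lacks one. The printed stretch of Tlr2 holds gggaattccc near its 3′ end, which is close to the NF-kB form searched but not an exact match. Whether it serves as an NF-kB site was not tested, and its frequency among the promoter entries was not counted. The window of Tlr3 held the NF-kB form 211 bases before the start, inside an exon of other Tlr3 transcripts in GENCODE M21. One of the entries of Tlr6, a gene that was not called, held 2 overlapping matches of the interferon-response form inside an intron of the gene, and one of those of Tlr1, also not called, held the PU box. The motifs were thus found both before genes that rose and before genes that did not pass the test.

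The LPS co-receptor gene Cd14 was the only one of the 10 that fell. It had 367, 344 and 358 CPM in the CON group and 327, 319 and 338 CPM after sTREM-1. The highest sTREM-1 library lay just below the lowest CON library. Its mean level went from 356 ± 11.5 to 328 ± 9.48 CPM (mean ± SD of 3 libraries), and edgeR gave a log2 fold change of -0.12 (SE 0.03, adjusted p = 8.2e-04). With the further demand of at least a 1.2-fold change, Cd14 was no longer called. Cd14 lies on the minus strand of chromosome 18, from 36725067 to 36726798.

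Ly96, which encodes the MD-2 subunit of the LPS receptor, had the fewest counts of the 10 genes, between 395 and 475 in a library. It had 11.3, 9.63 and 11.1 CPM in the CON group and 10.05, 11.1 and 10.06 CPM after sTREM-1, with overlap. The log2 fold change was -0.03, and its 95% interval from -0.22 to 0.16 is the widest of the 10 genes (edgeR quasi-likelihood adjusted p = 0.84). A change of the size seen for Cd14 lies within this interval. Ly96 lies on the plus strand of chromosome 1 from 16688051 to 16709611.

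Because levels of different genes can be compared only per length, the CPM values were divided by the exon length of each gene in kilobases. In the CON group the order of the levels was Cd14 at 206 ± 6.63, Tlr2 at 30.8 ± 0.444, Tlr13 at 28.8 ± 0.991, Tlr7 at 19.6 ± 1.00, Tlr4 at 16.0 ± 0.195, Ly96 at 10.4 ± 0.873, Tlr9 at 9.70 ± 0.149, Tlr1 at 8.67 ± 0.137, Tlr6 at 7.56 ± 0.459 and Tlr3 at 3.48 ± 0.213 CPM per kilobase (SD, n = 3 each). Cd14 thus stood far above all receptors. Only Ly96 and Tlr9 overlapped in the CON group as neighbours in this order. After sTREM-1 the order of the 10 genes by exon length was the same, and only Tlr9 and Tlr1 overlapped as neighbours. Tlr2 stood at 41.3 ± 0.952, Tlr13 at 36.0 ± 1.56, Tlr7 at 25.3 ± 1.04 and Tlr3 at 4.47 ± 0.248 CPM per kilobase after sTREM-1. With the length of the longest transcript in place of the exon length, the order differed between the groups, since Tlr4 then stood above Tlr7 in the CON group and Tlr1 above Tlr9 after sTREM-1. Both of these pairs overlapped where they changed places.

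**Figure D3:**
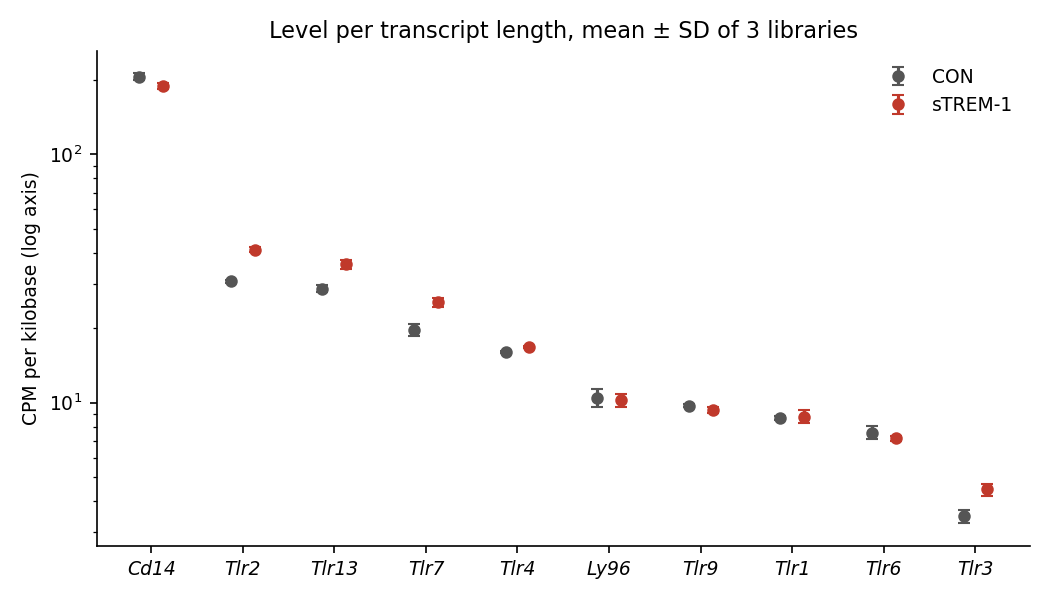
Level per kilobase of exon length (CPM per kilobase, log axis) of the 10 genes, ordered by their level in the CON group (grey) and shown beside the sTREM-1 group (red), as mean ± SD of 3 libraries. Cd14 stands at 206 and 189 CPM per kilobase, and no Toll-like receptor gene stands above 41.3.

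In order to compare receptors with the partners that they need, the log2 ratio of the counts of 2 genes was taken within each library, which is free of the scaling between libraries. Such ratios were formed for 6 pairs. The ratio of Tlr1 to Tlr2 was -1.68, -1.67 and -1.69 in the CON group and -2.20, -2.07 and -1.98 after sTREM-1. The ratio of Tlr6 to Tlr2 was -1.82, -1.62 and -1.73 in the CON group and -2.22, -2.19 and -2.25 after sTREM-1. In both pairs all sTREM-1 libraries lay below all CON libraries, so that fewer counts of either partner stood against each Tlr2 count. The mean difference was -0.41 for Tlr1 to Tlr2 and -0.50 for Tlr6 to Tlr2 (exact permutation test, two-sided, p = 0.1 for each, the smallest that 3 against 3 libraries allow, and 0.2 after Benjamini-Hochberg adjustment over the 6 pairs). The ratio of Tlr6 to Tlr1 overlapped between the groups (difference -0.09, exact permutation p = 0.5, adjusted p = 0.5).

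For the LPS receptor, the log2 ratio of Cd14 to Tlr4 was 2.06, 1.95 and 1.99 in the CON group and 1.79, 1.78 and 1.87 after sTREM-1, without overlap (difference -0.19, exact permutation p = 0.1, adjusted p = 0.2). The ratio of Ly96 to Tlr4 overlapped, with means of -3.06 ± 0.131 and -3.16 ± 0.0922 (SD, n = 3 each, exact permutation p = 0.3, adjusted p = 0.36). The ratio of Unc93b1, the chaperone that carries endosomal receptors out of the endoplasmic reticulum, to the sum of Tlr3, Tlr7, Tlr9 and Tlr13 also overlapped, with a difference of -0.13 (exact permutation p = 0.2, adjusted p = 0.3). None of the 6 ratios could reach an exact p under 0.05 in this design.

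**Figure D4:**
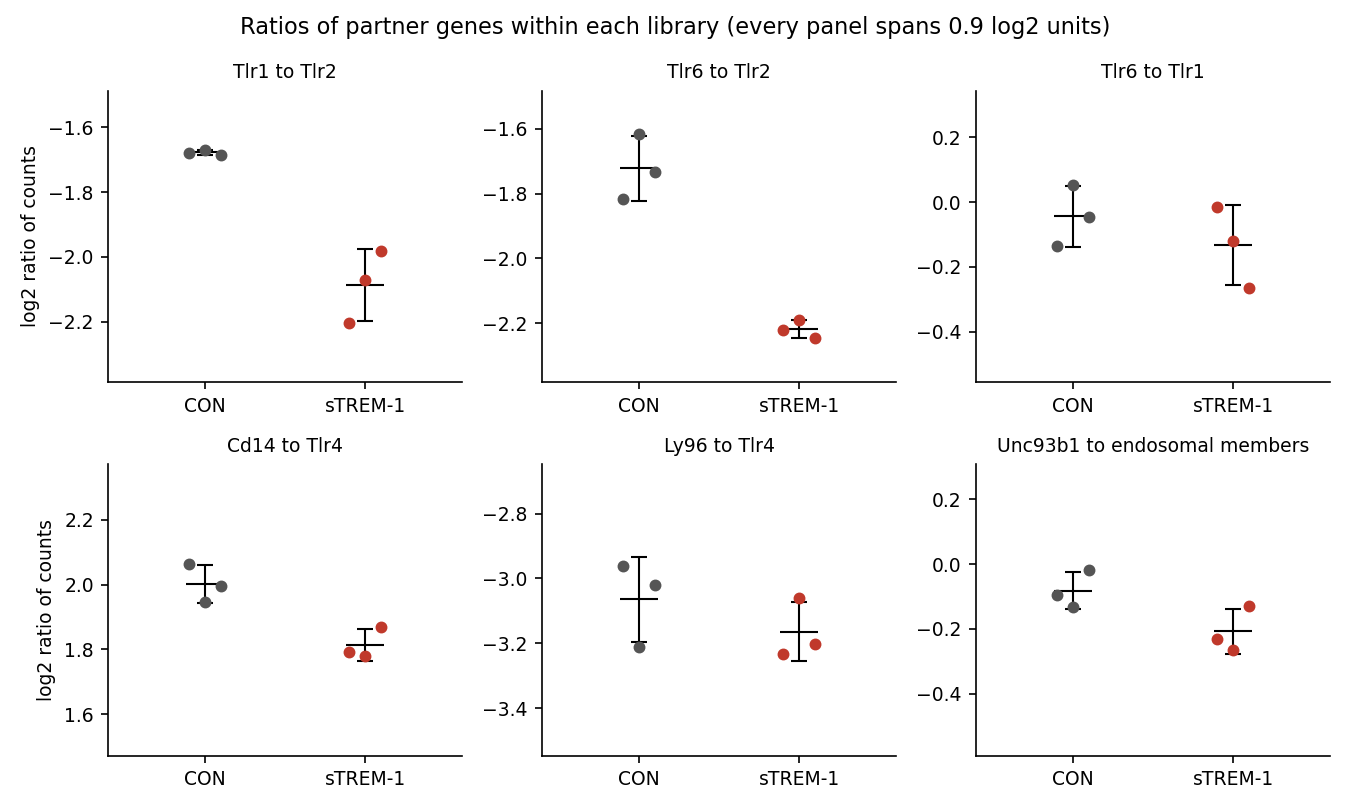
Log2 ratio of the counts of partner genes (y axis) within each CON library (grey) and sTREM-1 library (red), with mean ± SD as black bars, where the y axis of every panel covers the same span. The 3 ratios Tlr1 to Tlr2, Tlr6 to Tlr2 and Cd14 to Tlr4 lie lower in every sTREM-1 library than in any CON library, and the other 3 overlap.

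As sums over each library, the 4 surface receptor genes reached 238, 241 and 238 CPM in the CON group and 277, 271 and 273 CPM after sTREM-1. The 4 endosomal receptor genes together had 250, 266 and 252 CPM in the CON group and 319, 323 and 301 CPM after sTREM-1. The sum of the endosomal genes was thus 1.23-fold and that of the surface genes 1.15-fold its CON mean, without overlap in either case. Most of the step of 34.9 CPM in the surface sum was Tlr2, with means of 92.9 CPM in the CON group and 125 CPM after sTREM-1. Tlr1, Tlr4 and Tlr6 were not called. Cd14 and Ly96 together went from 367 ± 12.3 to 338 ± 8.98 CPM (mean ± SD of 3 libraries). For each of these 3 sums the exact permutation test gave p = 0.1 (two-sided, p = 0.1 also after adjustment), which is the smallest that the design allows.

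Other receptor genes of the family were at or near 0. Tlr11 was listed at 0 in all libraries, Tlr12 had 5 counts in CON replicate 1 and 0 elsewhere, and Tlr5, the flagellin receptor, had 0 to 8 counts in a library. Tlr8, the neighbour of Tlr7 on chromosome X (167242696 to 167264329), had 73, 46 and 50 counts in the CON group and 101, 97 and 82 counts after sTREM-1. It rose from 1.38 ± 0.356 to 2.18 ± 0.107 CPM (mean ± SD of 3 libraries), and edgeR gave a log2 fold change of 0.67 (SE 0.24, adjusted p = 0.0368), but the call was lost in 5 of the 6 fits that left out 1 library, with adjusted p-values up to 0.13. Cd180, a relative of TLR4 that modulates its signal, rose from 112 ± 2.55 to 130 ± 2.87 CPM (mean ± SD of 3 libraries), with a log2 fold change of 0.21 (edgeR quasi-likelihood adjusted p = 2.9e-06). Ly86, which encodes MD-1, the partner of CD180, had a log2 fold change of -0.02. Lbp, the LPS-binding protein gene, had 0.21, and Cd36, a co-receptor of TLR2, had -0.05, and these 3 were not called.

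Next, the pathway around the receptors was described from gene lists, of which 79 of 86 genes were tested. Of these, 30 rose and 11 fell, which is 38.0% and 13.9% against 16.5% and 14.1% of all tested genes, and their median log2 fold change was 0.04. When a change of 1.2-fold or more was also asked for, 5 of the 79 rose and 3 fell, against 5.92% and 4.82% of all tested genes, so that the pathway was then near the background in both directions. Of the 8 genes for chaperones and trafficking, 3 rose and 1 fell. Hsp90b1, the gene of the chaperone gp96 that folds most Toll-like receptors, rose from 928 ± 8.76 to 1047 ± 12.04 CPM (mean ± SD of 3 libraries), a log2 fold change of 0.17, and Unc93b1 rose from 242 ± 7.68 to 272 ± 3.31 CPM (mean ± SD of 3 libraries), also 0.17. Tmed7, a cargo protein gene for the transport of TLR4, fell, with a log2 fold change of -0.12. Of the 5 genes for endosomal proteases, which cut the endosomal receptors into their active form, Ctsk and Ctss rose with 0.18 and 0.19, Lgmn, named after its values were seen, rose with 0.14, and Ctsb fell with -0.05. The groups overlapped for Ctsb, and its call was lost in 4 of 13 alternatives, namely with no filter on low counts and without CON replicate 1, sTREM-1 replicate 1 or sTREM-1 replicate 2 (edgeR adjusted p = 0.0763 to 0.151).

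Of 6 adaptor genes, 3 rose and none fell. Myd88, the adaptor of nearly all Toll-like receptors, rose from 56.8 ± 3.01 to 62.7 ± 1.07 CPM (mean ± SD of 3 libraries), a log2 fold change of 0.14 (edgeR quasi-likelihood adjusted p = 0.0097). Without CON replicate 1 or CON replicate 3 it was no longer called (adjusted p = 0.0759 and adjusted p = 0.0527). Ticam2, the bridging adaptor between TLR4 and TRIF, and Pik3ap1, which links receptors to PI3K, rose with log2 fold changes of 0.15 and 0.09. The spans of Ticam2 and of Tmed7, which fell, overlap on the minus strand of chromosome 18. Whether reads were divided between these genes in the counting was not tested. Ticam1, which encodes TRIF itself, had 38.5 ± 1.95 CPM in the CON group and 37.7 ± 0.700 CPM after sTREM-1 (SD, n = 3 each) and was not called. Among 19 kinases and ubiquitin enzymes, 5 rose and 3 fell. Ikbke and Ripk1 rose with 0.24 and 0.15, while Irak1, the kinase that is recruited to MyD88, and Chuk, the gene of IKK-alpha, fell with log2 fold changes of -0.21 and -0.18.

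Of 6 transcription factor genes, 4 rose and none fell. Irf7, which works downstream of TLR7 and TLR9, rose from 114 ± 5.28 to 158 ± 3.72 CPM (mean ± SD of 3 libraries), a log2 fold change of 0.46 (edgeR quasi-likelihood adjusted p = 2.1e-12), and Irf5 rose with 0.14. Of 11 inhibitors, 3 rose and 1 fell. Trim30a, which degrades TAB2 and TAB3, rose with a log2 fold change of 0.59 and Tnfaip3, the gene of A20, with 0.32, whereas Tollip fell with -0.10. Without CON replicate 2 or sTREM-1 replicate 3, Tollip was no longer called (edgeR adjusted p = 0.0707 and adjusted p = 0.0555).

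The genes that respond to these receptors went in both directions. Of 12 tested NF-kB response genes, 4 rose and 5 fell, with a median log2 fold change of -0.18. Acod1 rose with 0.48 and Nfkbia, the NF-kB inhibitor gene, with 0.18, while Ptgs2 and Ccl3 fell with -0.49 and -0.30. Of 7 tested IRF3 and interferon response genes, 3 rose and none fell, with a median of 0.10. The 3 are 42.9% of those tested, against 16.5% of all tested genes higher and 14.1% lower. Isg15 rose with 0.25, which is 1.19-fold and the largest of the 3, and Rsad2 with 0.10. Ifit1, also named after its values were seen, lay lower in every sTREM-1 library than in any CON library. It was not called (log2 fold change -0.17, edgeR quasi-likelihood adjusted p = 0.0672). Tnf, named here after its counts were seen, was listed at 0 in all 6 libraries and gives no level of TNF mRNA, because its neighbours on chromosome 17 were at 0 as well.

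**Figure D5:**
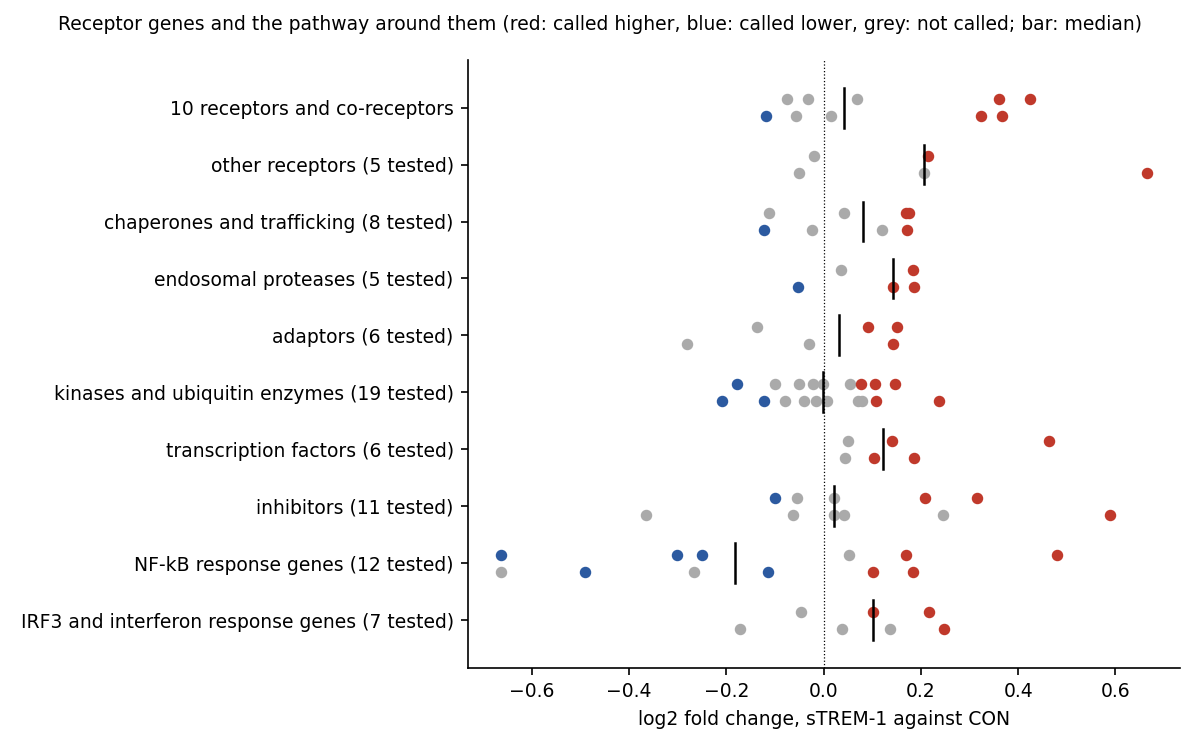
Log2 fold change (x axis, sTREM-1 against CON) of each tested gene, in rows for the 10 receptor and co-receptor genes and for 9 lists of the pathway, with red for called higher, blue for called lower, grey for not called and a black bar for the median of each row. The 4 red genes of the first row stand apart at 0.32 to 0.42, and the NF-kB response row spreads from -0.66 to 0.48.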

How the data were processed

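The authors sequenced RNA of BV2 cells and deposited raw counts, whole numbers in 1 table with a row for each gene symbol, and all its columns were used. The methods name FastQC, RSEM and edgeR. The submitters' processing notes name HISAT2 2.0.4 and human genome builds although the symbols are those of mouse genes, and annotation and strand are not given in the sources used here. Genes of low count were dropped by filterByExpr at its minimum of 10, TMM factors were computed, and groups were compared in edgeR 4.0.16 (quasi-likelihood test, Benjamini-Hochberg adjustment, no covariate, R 4.3.3). CPM are counts relative to the TMM-scaled library total. Standard errors were derived from the F statistics, and 95% intervals from the moderated degrees of freedom. Coordinates, lengths and GC content come from GENCODE M21 (GRCm38), and 90.7% of tested genes had GC and length values for the loess correction (span 0.3). DESeq2 1.42.0 was an alternative. The procedure was tested on simulated data. The 10 genes and all lists were chosen with earlier results of these data known. Pathway genes named outside the 10 are all other receptors, Myd88, Ticam1, Unc93b1, Hsp90b1 and the 2 called genes of smallest p per list and direction. Exceptions are stated as named after their values or counts were seen. The smallest library held 40070633 counts, which keeps counting error small except for genes of few counts.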

Additional observations from a re-analysis of the deposited data

How the results depend on the processing

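The same 5 of the 10 receptor and co-receptor genes were called under RLE size factors, both other filters, DESeq2, the replicate block, the GC and length correction, an adjusted p under 0.01 and without each library. With the GC and length correction and the replicate block together 6 were called, since Tlr4 was then called as well (log2 fold change 0.081, adjusted p = 0.0467, over all alternatives 0.0467 to 0.306), and the cause was not tested. With at least a 1.2-fold change, 4 higher and 0 lower of the 10 were called, and the demand itself left 1517 of all genes (836 higher, 681 lower) and 8 pathway genes (5 higher, 3 lower). An adjusted p under 0.01 left 1317 lower genes of all tested. The sign changed only for genes that were not called. The log2 fold change of Ly96 was 0.013 with the GC and length correction and 0.016 with the replicate block as well, and ran from -0.10 to 0.0086 without each library. Without each library it ran from -0.033 to 0.055 for Tlr1 and from -0.052 to 0.013 for Ticam1. Besides Tlr8 and Myd88, the calls of Ctsb and Tollip were lost in 4 and 2 of 13 alternatives, and Cd36 was called in 1. The surface sum differed by 32.0 CPM with no scaling factor against 34.9. With the longest transcript as length, 2 genes changed rank in the CON group (Tlr4 and Tlr7), and Tlr1 and Tlr9 changed places in the sTREM-1 group. Same-numbered libraries deviated with correlations of -0.018, -0.033 and -0.014 across genes. This measure showed no pairing by replicate number, but it cannot tell whether same-numbered cultures were handled together. With the replicate block 4613 genes were called against 4312. Values of genes with few counts, such as Tlr8, are limited by depth.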

Other observations

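The 0 counts of Tnf, the classical response gene of the Toll-like receptors, and of Aif1 lie in a stretch of chromosome 17 of GRCm38 where nearly all genes were at 0. Of the 18 protein-coding genes in the table within 100 kb of Tnf, itself included, 17 had 0 counts in all 6 libraries. Around it, 29 neighbouring protein-coding genes from Vwa7 to H2-Q2 (35016579 to 35346762) had at most 1 count each over all libraries, and 27 of them had none. They include Csnk2b, Bag6 and Ddx39b, genes that nearly every cell uses, with 0, 0 and 1 counts. The 0 of Tnf and Aif1 in this table is therefore not a measurement of their mRNA. The reason for the missing counts was not tested. None of the 10 receptor and co-receptor genes lies on that chromosome.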
